A study of Gallus gallus with 6 samples.

Results

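The entries of a chicken feather expression table whose locus lies on the Z chromosome were compared with the entries on the numbered chromosomes across neck, wing and leg feathers. Of the 6534 entries of this table, 266 (4.07%) were on Z and 5413 on 31 numbered chromosomes, and the remaining 855 on the mitochondrial genome or unplaced scaffolds were left out of the comparison. Membership was decided by locus alone, among entries that the table lists. The lowest mean over the 3 libraries was 9.67 in the whole table and 10 on Z, so genes low in every region are not among them, and an entry near 0 in one region is listed only through its level in the others. Of the Z entries, 197 carried a gene name that the RefSeq gene table of GRCg7b also lists, and all 197 lie on Z there. Another 46 carried only Ensembl identifiers, 18 merged several genes under one value and 4 had no name. The Z entries covered 253 distinct loci, with 25 entries sharing a locus with another, and spanned Z from 367036 to 81770170 in the coordinates of the table.

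RNA came from growing feathers plucked from the neck, wing (contour feathers) and leg of adult wild-type, untreated Gallus gallus, strain "domesticus". The deposited design describes dissected epithelium of the branching zone, pooled from 5 feathers with the mesenchymal pulp removed, whereas the paper's methods name whole follicles or dermal papilla and pulp, and adult male birds. Each of the 3 regions had 2 replicates, the first in the table with loci and the second in a table of FPKM, a count of fragments scaled to the length of the gene and to the size of the library. Of the Z entries, 93 (35.0%) were matched by gene name to the FPKM table, as were 2076 genes on numbered chromosomes, which together with genes elsewhere made 2191 matched genes. Nothing states that the replicates came from separate birds. The p-values of genes measure only how far the 2 tables disagreed on changes between regions, which may be technical. This spread was pooled over genes of similar mean and is not that of each gene alone.

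In birds the male carries a pair of Z chromosomes and the female a single Z with a W chromosome. Compensation for the missing copy in females acts on some genes and not on others, unlike the chromosome-wide inactivation of an X in mammals, so that many avian Z genes are expressed at a higher level in males. A few Z genes have kept a partner on W. Z also carries genes with a known place in the skin, among them pigment genes of the melanocyte such as SLC45A2, the locus of the Silver plumage phenotype of chickens.

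The values of the first table have no stated unit and summed to 4195932, 1780292 and 3051339 over the neck, wing and leg libraries, and the FPKM values to 792798, 701758 and 805460, so the number of sequenced fragments behind any value is unknown. Chromosome 25 alone held 48.0%, 14.3% and 49.7% of the first table's sum in neck, wing and leg. No entry of the first table was on W. The W genes HINTW and SPINW were listed at 0 in all 3 FPKM libraries, as was the Z gene UBAP2. A 0 there need not mean that a gene was silent, since KRT5 was also listed at 0 but had values in the first table, given below. Markers of the mesenchyme were present in libraries described as epithelium and were, by their sums, higher in wing and leg than in neck. The summed level of 14 of 18 listed mesenchymal genes in neck, wing and leg was 417, 1800 and 957 FPKM, and that of 6 of 13 blood and endothelial genes was 6.83, 73.6 and 22.0 FPKM. For the epithelial list the sums over 8 of 10 genes were 3179, 4179 and 2740 FPKM, with KRT5 and KRT75 listed at 0. In the first table the sums over 7 of its genes were 2622, 2059 and 1936, so that neck and not wing was highest. There KRT5 was 307, 519 and 244 over neck, wing and leg, whereas SFN was 1459, 736 and 977.

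The levels of Z and of the numbered chromosomes overlapped widely in all 3 regions. In the first table the median Z entry in neck, wing and leg was 25.5, 22 and 20, against 28, 26 and 22 on numbered chromosomes, giving ratios of 0.911, 0.846 and 0.909. For its matched genes alone the ratios were 0.897, 0.862 and 0.957. Among matched genes of the FPKM table the median was 60.8 for Z against 54.0 in neck, 69.3 against 67.2 in wing and 59.1 against 50.3 in leg, with ratios of 1.13, 1.03 and 1.18. The ratio was lowest in wing in both tables. It lay below 1 in the first table and above 1 in the FPKM table. The tables differ in unit, replicate and processing, which cannot be told apart here, and the unit of the first is unknown.

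**Figure D1:**
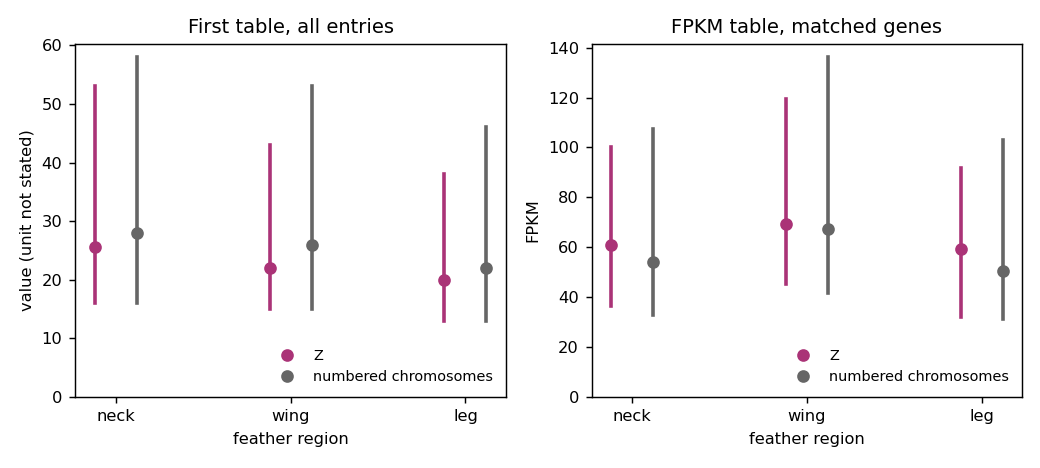
Median (points) and interquartile range (lines) of the level of Z entries and of entries on numbered chromosomes in each region, for all entries of the first table (left, unit not stated) and for genes matched in the FPKM table (right). The panels differ in unit and in the genes they hold, and are to be read within a panel. The interquartile ranges overlap in every library.

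The difference between the median log2 level of matched Z genes and that of matched numbered genes amounted to -0.15, -0.21 and -0.06 for neck, wing and leg of the first table and to 0.17, 0.05 and 0.23 for those of the FPKM table. Leg was highest and wing lowest in both tables. An exact permutation of the region labels within each table gave p = 0.167 (two-sided), which is the smallest p that the 36 possible arrangements allow. As a share of the summed values, Z took 0.959%, 1.77% and 1.05% of the neck, wing and leg libraries of the first table. Without chromosome 25 the shares were 1.85%, 2.07% and 2.08%, so that the neck share was the lowest and wing and leg lay close to each other.

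Between regions the Z genes moved with the rest of the genome. On the log2(value + 1) scale, the median change of all 266 Z entries minus that of the numbered entries in the first table was -0.06 for wing against neck, while the leg library gave -0.0013 against neck and 0.06 against wing. For the 93 matched genes, in the same order, it was 0.05, 0.02 and 0.11 in the first table and -0.03, 0.03 and 0.10 in the FPKM table. Among matched genes only the difference of wing against neck changed sign between the tables. Leg against wing was positive throughout, with 148 of 266 entries above the numbered median in the first table and 54 of 93 genes in the FPKM table.

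When the chromosomes with at least 20 entries were ordered by their median change, Z lay inside the range of the others in every comparison. For leg against wing it was 8th from the highest of 29 chromosomes over all entries, and 3rd and 4th of 26 over matched genes of the first and the FPKM table. For wing against neck it was 24th of 29, and 5th and 22nd of 26 in the matched genes of the 2 tables. For leg against neck its places were 16th of 29, and 11th and 10th of 26. Even for leg against wing, at least 2 numbered chromosomes had a higher median than Z in each table.

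**Figure D2:**
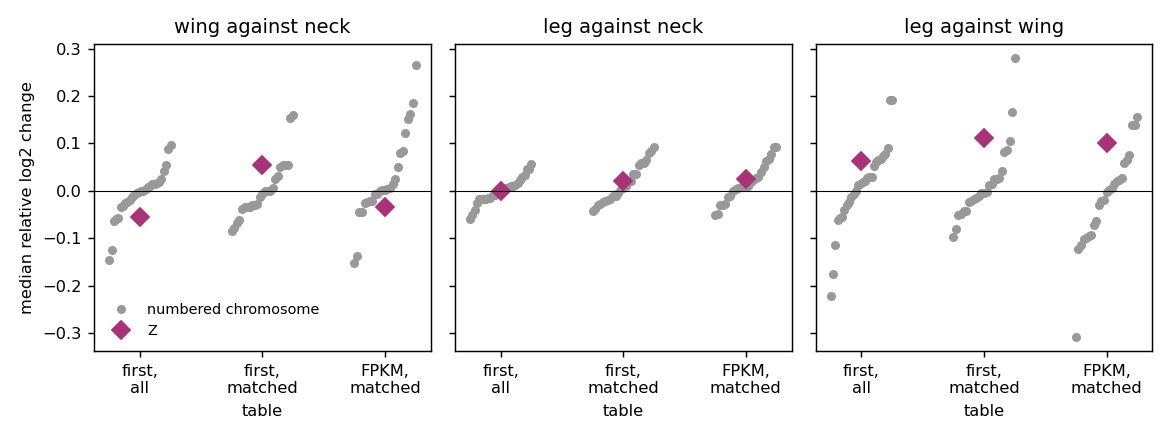
Median log2 change of each chromosome with at least 20 entries, relative to the median of all numbered chromosomes (y axis), for each comparison and table (x axis). Grey points are numbered chromosomes in ascending order and diamonds are Z, which lies at 0.06, 0.11 and 0.10 for leg against wing and within the range of the other chromosomes in every column.

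Individual Z genes did differ between regions, with most calls in the comparisons that involve wing. In the limma fit over the 2140 matched genes that passed the filter on low values, which all 93 Z genes passed, 22 Z genes were higher and 7 lower in wing than in neck at an adjusted p of 0.05. Of all genes tested, 20% were called higher and 8.46% lower. For leg against neck, 2 Z genes were higher and 10 lower, against 1.82% and 10.8% of all genes. For leg against wing, 6 Z genes were higher and 38 lower, against 6.07% and 41.7% of all genes. As shares of the 93 Z genes these are 23.7% and 7.53%, 2.15% and 10.8%, and 6.45% and 40.9%, close to the backgrounds of this fit.

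The imbalance of directions was shared by the whole genome. The median log2 change over all genes tested came to 0.14 (wing against neck), -0.20 (leg against neck) and -0.33 (leg against wing), and the Z medians were 0.13, -0.20 and -0.23. With each library centred on its numbered chromosomes, the Z calls became 24 higher and 27 lower for wing against neck (22.1% and 24.7% of all genes), 13 and 10 for leg against neck (9.72% and 9.02%), and 37 and 26 for leg against wing (28.9% and 24.9%). The widest gap from the background was in Z genes higher in leg than in wing, 39.8% of the 93 against 28.9%, given as a description with no test. The called changes of the named Z genes described next kept their direction under this scaling. Without the replicate block, which leaves the different units of the tables in the error, limma called 0 Z genes in each comparison, with 1, 0 and 2 at an unadjusted p under 0.05. Only 7 Z genes were called for wing against neck from the 4 libraries of those regions alone, while leaving the wing libraries out of leg against neck again gave 12.

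The tables ordered the Z genes alike. Across the 93 genes the Pearson correlation between the relative changes in the 2 tables was 0.93, 0.96 and 0.94 in the same order of comparisons, as a description over genes that share the same libraries. The change lay on the same side of the numbered median in 84, 80 and 85 of the 93 genes, or 90.3%, 86.0% and 91.4%, against 78.7%, 82.4% and 82.9% of the numbered genes. The median gap between the tables was 0.12, 0.06 and 0.10 on the log2 scale. Wing was the outermost region more often than the others. After centring, wing was highest of the 3 regions in both tables for 31 Z genes and lowest for 38, against 29% and 33.2% of all matched genes. Leg was highest for 34 and lowest for 21, against 27.5% and 21.7%. Neck was highest for 16 and lowest for 15, against 16.6% and 16%.

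**Figure D3:**
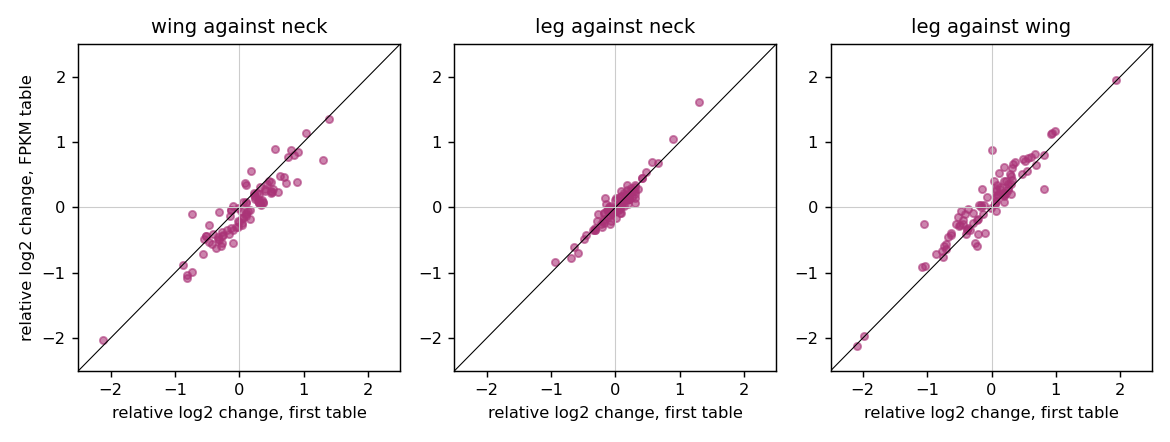
Log2 change of each of the 93 matched Z genes relative to the median of numbered chromosomes in the first table (x axis) and in the FPKM table (y axis), 1 panel per comparison, with the line of equality. The points follow the line, with Pearson correlations of 0.93, 0.96 and 0.94, and the smallest spread is in leg against neck.

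The pigment gene SLC45A2, a melanosomal transporter at Z 10326493 to 10346275, was the matched Z gene with the largest rise in wing. In neck, wing and leg its value was 13, 33 and 6 in the first table, and 26.3, 86.1 and 14.0 FPKM in the second. Wing was the highest and leg the lowest library in both tables. The log2 change was 1.48 ± 0.18 (SE) for wing against neck (adjusted p = 9.9e-15), -0.93 ± 0.18 for leg against neck (adjusted p = 1.29e-05) and -2.41 ± 0.18 for leg against wing (adjusted p = 5.5e-38). MLANA, another melanosomal protein of melanocytes at Z 27814584 to 27819688, was listed only in the first table with the same order, at 147, 575 and 104. Of the 7 pigment genes listed, these were the 2 with a Z locus in the table.

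The melanocyte list was also highest in wing by its sum. The summed level of 6 of its 10 genes, SLC45A2 and MLANA included, over neck, wing and leg was 262, 796 and 182 in the first table. MLANA alone made up 147, 575 and 104 of these sums. The sums over 9 genes were 211, 436 and 177 FPKM. The median change of the list for wing against neck relative to the numbered chromosomes was 1.41 in the first table but 0.05 in the FPKM table, with 5 genes above 0 in each. Of the defining genes, PMEL was listed at 0 in all 3 FPKM libraries and DCT in neck and leg. In the first table PMEL was 24, 62 and 17 over neck, wing and leg. KIT differed little between neck and wing, at 28 and 24 in that table and at 70.5 and 73.9 FPKM. MITF was likewise at 24 and 25, and at 49.4 and 56.1 FPKM. TYRP1, a melanosomal enzyme also on the list of Z pigment genes, had no Z entry and was listed only as FPKM. It went the other way at 13.7, 0.20 and 20.2 over neck, wing and leg. In bulk samples more cells of a type and more RNA per cell cannot be told apart, and the part of melanocyte content in these results was not tested.

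FBP1, fructose bisphosphatase of gluconeogenesis, followed the same order as SLC45A2. In the same order of regions it stood at 44, 85 and 18 in the first table, and at 66.9, 186 and 34.7 FPKM. Again wing was highest and leg lowest in each table. It rose by 1.20 ± 0.17 on the log2 scale in wing against neck (adjusted p = 1.17e-10), fell by 1.09 ± 0.17 in leg against neck (adjusted p = 3.69e-08) and fell by 2.28 ± 0.17 in leg against wing (adjusted p = 4.63e-37).

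The members of a list of transcription and chromatin genes that had a Z entry were highest in wing. LMNB1, lamin B1 of the nuclear lamina, was 30, 53 and 22 in neck, wing and leg of the first table and 84.0, 191 and 76.6 FPKM. The wing library stood above both others, which differed less from each other. Its log2 change was 0.99 ± 0.17 for wing against neck (adjusted p = 2.49e-07) and -1.27 ± 0.17 for leg against wing (adjusted p = 7.59e-12). NFIL3, a basic leucine zipper transcription factor, was 12, 16 and 6 and 35.4, 51.9 and 20.1 FPKM. Here leg was the lowest library in both tables, with a change of -0.84 ± 0.19 against neck (adjusted p = 2.55e-04) and -1.30 ± 0.19 against wing (adjusted p = 5.71e-11).

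PSIP1, a chromatin-binding protein, was 12, 19 and 10 in the first table and 54.6, 88.8 and 48.4 FPKM. SMARCA2, an ATPase of the SWI/SNF chromatin remodelling complex, was 19, 29 and 16 and 59.9, 105 and 58.2 FPKM. These 4 of the 19 listed genes had a Z entry in the first table, and members listed only as FPKM were not searched for. The list thus does not stand for the nuclear genes of Z. The transcription factor KLF4, not on the list, was lowest in wing at 110, 59 and 110 in the first table. All 4 were called higher in wing than in neck and all 4 lower in leg than in wing, while 1 of them, NFIL3, was called lower in leg than in neck. Over all genes tested these calls were made in 20%, 41.7% and 10.8%. Their median change for wing against neck, relative to the numbered chromosomes, reached 0.71 (first table) and 0.42 (FPKM table), where the background medians are 0 by construction.

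Other called genes were also highest in wing and were chosen here after their values were seen. CENPH, a protein of the kinetochore, was 14, 24 and 12 in the first table and 29.8, 66.4 and 28.8 FPKM. It rose by 0.93 ± 0.17 in wing against neck (adjusted p = 1.03e-06) and fell by 1.06 ± 0.17 in leg against wing (adjusted p = 1.21e-08). SMC2, a core subunit of condensin, was 28, 40 and 24 and 114, 169 and 114 FPKM, with changes of 0.53 ± 0.17 (adjusted p = 0.0122) and -0.64 ± 0.17 (adjusted p = 0.00106). Both act on mitotic chromosomes.

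EFNA5, an ephrin ligand of Eph receptors, was 10, 18 and 7 and 15.0, 25.2 and 15.5 FPKM. It rose by 0.75 ± 0.21 in wing against neck (adjusted p = 0.00232). TPM2, a tropomyosin of muscle and other contractile cells, was 86, 118 and 86 and 64.4, 152 and 77.1 FPKM, rising by 0.84 ± 0.18 in wing against neck (adjusted p = 6.4e-05). In all 4 of these genes, chosen after their values were seen, wing was the highest library in both tables. Over all 22 Z genes called higher in wing than in neck the log2 change ran from 0.45 in FAM172A to 1.48 in SLC45A2. Among the 7 called lower, LPAR1, a lysophosphatidic acid receptor, had the smallest change, at -0.41.

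FAM172A was also lowest in leg, at 21, 26 and 12 over neck, wing and leg and at 41.3, 63.3 and 28.5 FPKM, and changed by -1.09 ± 0.17 between wing and leg (adjusted p = 2.03e-09). TBCA, a cofactor of tubulin folding, declined from neck through wing to leg at 57, 43 and 29 and at 137, 114 and 83.6 FPKM. It fell by 0.83 ± 0.18 on the log2 scale in leg against neck (adjusted p = 1.31e-04). STARD4, a cholesterol transfer protein, was at 18, 16 and 10 and at 44.5, 45.3 and 29.4 FPKM, so that leg alone was low, by 0.68 ± 0.17 on the log2 scale against neck (adjusted p = 0.00193).

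Another group of Z genes was lowest in wing. CAST, calpastatin, the inhibitor of calpain proteases, was 128, 67 and 113 in the first table and 369, 225 and 372 FPKM. It fell by 0.82 ± 0.20 on the log2 scale in wing against neck (adjusted p = 5.03e-04) and rose by 0.74 ± 0.20 in leg against wing (adjusted p = 0.00114). ELOVL7, an elongase of long-chain fatty acids, was 201, 112 and 187 and 379, 239 and 389 FPKM, with changes of -0.75 ± 0.21 (adjusted p = 0.00273) and 0.72 ± 0.21 (adjusted p = 0.00252). In both genes neck and leg lay close together and wing apart. Fitted on the 4 wing and neck libraries alone, neither fall against neck passed the test (adjusted p = 0.118 for CAST and 0.197 for ELOVL7).

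PAIP1, a translation factor that binds the poly(A)-binding protein, was 86, 43 and 61 and 162, 109 and 129 FPKM, and ABHD17B, a protein depalmitoylase, was 16, 8 and 10 and 35.7, 20.7 and 26.0 FPKM. They fell by 0.77 ± 0.18 (adjusted p = 2.29e-04) and by 0.84 ± 0.19 (adjusted p = 1.35e-04) on the log2 scale in wing against neck, and with only the 4 libraries of these regions neither passed (adjusted p = 0.0827 and 0.0531). ANXA1, annexin A1, a calcium-dependent membrane-binding protein, was highest in leg at 64, 47 and 82 and at 160.2, 144 and 242 FPKM. Its rise of 0.77 ± 0.19 in leg against wing passed the test (adjusted p = 2.15e-04). KANK1, a regulator of the actin cytoskeleton, was 32, 21 and 33 and 71.4, 62.1 and 81.2 FPKM and rose by 0.50 ± 0.17 in leg against wing (adjusted p = 0.00782).

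VCAN and GLRX were the 2 Z genes called higher in leg than in neck, and both were also higher in wing than in neck. VCAN, the proteoglycan versican of the extracellular matrix, was 6 in neck against 15 in wing and 13 in leg of the first table, and 11.6, 25.2 and 35.2 FPKM. Wing was the higher of wing and leg in the first table and leg in the second. The log2 change was 1.12 ± 0.20 for wing against neck (adjusted p = 4.93e-07) and 1.26 ± 0.20 for leg against neck (adjusted p = 4.94e-08), and 0.14 ± 0.20 for leg against wing (adjusted p = 0.596).

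Against neck, most of the mesenchymal markers, whose sums were given above, moved the same way as VCAN. The median change of the list relative to the numbered chromosomes was 2.34 for wing against neck and 1.92 for leg against neck over 7 genes of the first table, and 2.19 and 1.28 over 14 genes of the FPKM table. Above the numbered median lay 6 and 7 of the 7, and all 14 in both comparisons. VIM, at 75, 62 and 69 in neck, wing and leg of the first table, lay below that median for wing against neck and above it for leg against neck. The part of mesenchymal content in the VCAN result was not tested. GLRX, the redox enzyme glutaredoxin, was 7, 12 and 11 and 6.93, 17.3 and 14.4 FPKM. It rose by 0.95 ± 0.24 in wing (adjusted p = 5.15e-04) and by 0.77 ± 0.24 in leg (adjusted p = 0.0142) against neck. The rise in wing did not pass with only the 4 wing and neck libraries (adjusted p = 0.125).

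**Figure D4:**
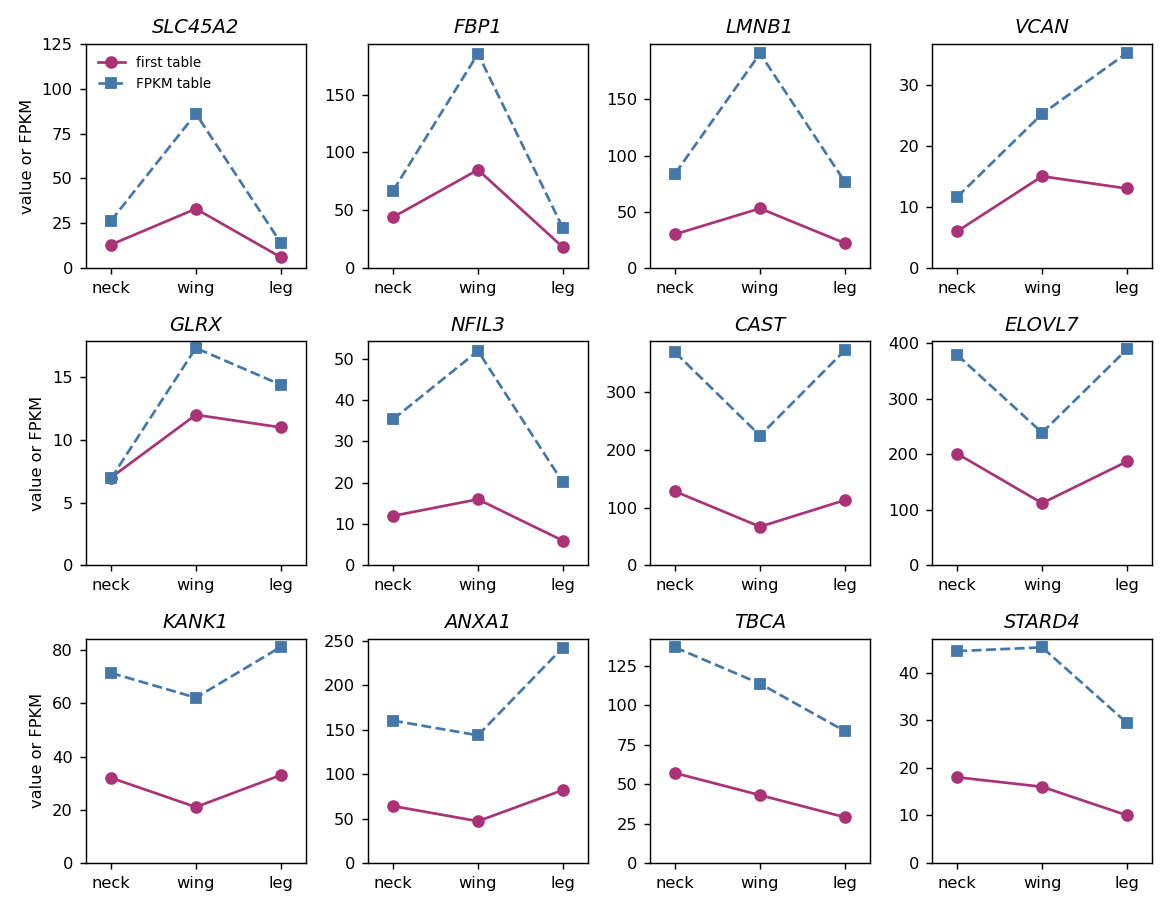
Level of 12 named Z genes in each of the 6 libraries, with the first table as circles (unit not stated) and the FPKM table as squares, each y axis starting at 0. SLC45A2, FBP1, LMNB1 and NFIL3 peak in wing in both tables, CAST, ELOVL7 and KANK1 are lowest in wing in both, and TBCA and STARD4 are lowest in leg.

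The list of signalling genes had few members with a Z entry. Of 35 listed growth factors, receptors and mediators, 7 had a Z entry and 4 of these an FPKM value. PTCH1, the Hedgehog receptor, was 9, 11 and 11 in the first table and 10.97, 14.7 and 17.1 FPKM, with a log2 change of 0.43 ± 0.23 for leg against neck (adjusted p = 0.204). SMAD2, listed as MADH2, a mediator of TGF-beta and activin signals, was 24, 28 and 22 and 37.6, 49.3 and 44.9 FPKM. IL6ST, the shared signalling receptor of a cytokine family, was 11, 9 and 10 and 23.4, 22.0 and 26.4 FPKM. Relative to the numbered chromosomes, leg lay above neck in 7 of 7 entries of the first table (median 0.30) and 4 of 4 genes of the FPKM table (median 0.30), and 0 of the 4 tested passed the limma threshold in any comparison. With 1.82% of all genes called higher in leg than in neck, 0 of 4 is no result about signalling genes, and EFNA5 and LPAR1, which are not on the list, did pass the test in comparisons with wing.

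Of 32 genes listed as having a partner on W, 3 had a Z entry. These were SMAD2, TNPO1, a nuclear import receptor, at 15, 12 and 13, and TXNL1, a thioredoxin-like protein, at 108, 113 and 71. Members were found by name, so one under an unresolved Ensembl identifier would be missed. Of the same list, ATP5A1, CHD1, HINT1, SUB1, UBE2R2 and VCP had no Z entry found by name but were above 0 in every FPKM library. HINT1 was 315, 525 and 276 FPKM over neck, wing and leg, and UBE2R2 was 120, 102 and 92.6 FPKM. None of the 10 listed sexual differentiation genes, DMRT1 among them, had a Z entry. Of 22 matrix, adhesion and junction genes, 3 had one, namely VCAN, CAST and ITGA2, an integrin collagen receptor subunit at 9, 13 and 8. VCAN and CAST moved in opposite directions between wing and neck, as given above.

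The metabolic list was the best covered, with 16 of 27 genes on Z in the first table and 9 with FPKM. For wing against neck 3 of the 9 were called higher and 0 lower, namely FBP1, GLRX and HSD17B4, a peroxisomal enzyme of fatty acid oxidation at 56, 72 and 48 and at 140.2, 233 and 138 FPKM, where 20% of all genes were called higher and 8.46% lower. For leg against wing ANXA1 and NARS, an aminoacyl-tRNA synthetase, were called higher and FBP1 and HSD17B4 lower, against 6.07% and 41.7% of all genes. The median change of the list for wing against neck was near that of the numbered chromosomes in both tables (-0.01 and -0.03). Of 15 translation and proteasome genes, 7 had a Z entry. All 7 lay below the numbered median for wing against neck in the first table (median -0.18), as did the 4 with FPKM (median -0.19), and 0 of these 4 was called in this comparison.

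In each comparison the change largest in size was in a Z entry that only the first table held. There each region is 1 library and no test was possible. The largest rise in leg against neck, however, was in VCAN, a matched gene. The counts that follow are over all 266 Z entries of the first table, matched genes included. Relative to the numbered chromosomes, 6 Z entries were at least 2-fold higher and 12 at least 2-fold lower in wing than in neck, or 2.26% and 4.51%. The shares over all entries of the table were 6.27% and 6.17%. For leg against neck 2 were higher and 5 lower (2.46% and 2.65% of all entries), and for leg against wing 14 were higher and 8 lower (6.41% and 7.55% of all entries). Each of these counts is a smaller share of the 266 Z entries than the share over the whole table, given as a description. The whole table includes the 855 entries left out of the comparison, so its shares are not those of the numbered chromosomes. Among the 5413 numbered entries the higher and lower counts were 237 and 347, 108 and 111, and 364 and 281, in the same order.

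A pair of neighbouring entries had almost no value in wing. An entry merging 3 Ensembl genes at Z 9148929 to 9166029 had values of 407, 2 and 54 for neck, wing and leg. The entry ENSGALG00000026655 at Z 9145215 to 9146534, which lies 2394 bases before it, was 32, 0 and 8. The entries on either side did not share this, since RGP1 at Z 9116331 to 9137569, a regulator of Golgi trafficking, was 15, 11 and 12, an entry merging GBA2 at the same locus was 32, 15 and 26, and an unnamed Ensembl gene at Z 9167651 to 9172752 was 15, 13 and 12. An entry merging NXNL2, a thioredoxin-like protein known from the mouse retina, with an Ensembl gene at Z 43261529 to 43290181 had the same order at 168, 7 and 54. Merged entries cannot be assigned to one of their genes.

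TRIM36, a RING-type ubiquitin ligase, had 25, 2 and 27 over the same regions, and TMEM171 was 22, 5 and 22. In both of these wing alone was low. KLF4, which acts in epithelial differentiation, had its values given above, and CA9, a carbonic anhydrase, was 68, 30 and 57. TRIM36, TMEM171, KLF4, CA9 and the entries beside the pair above were chosen after their values were seen. Entries highest in wing were fewer. ENSGALG00000027891 was 70, 152 and 35, RAI14, an actin-associated protein, was 34, 53 and 31, and CETN3, a centrin of the centrosome, was 29, 40 and 17. In leg, IKBKAP, the scaffold of the Elongator complex, was highest at 20, 16 and 28, and the U2 entry, named for the spliceosomal small nuclear RNA, was lowest at 914, 744 and 332.

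A few entries carried most of the Z signal. The 5 highest Z entries made up 65.1%, 60.4% and 68.0% of the Z sum over neck, wing and leg. RPS23 was 6189, 5238 and 4611, RPL37 was 5901, 3293 and 5098, and RPS6 was 4845, 4103 and 4308. These encode ribosomal proteins, and the other 2 of the 5 are Ensembl genes without a name in the table. In the FPKM table RPL37 was 2648, 3082 and 2808 and RPS6 was 7641, 9311 and 8389. Relative to the numbered chromosomes RPL37 was lowest in wing in both tables, with changes against neck of -0.73 in the first and -0.10 in the FPKM table. Further down were subunits of the respiratory chain and ATP synthase, ATP5I at 809, 701 and 608 and COX7C at 412, 345 and 334. The median Z entry had a mean of only 22.7 over the 3 libraries, and the lowest of 10.

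Along Z the changes were only weakly related to position. Across the 266 entries the Spearman correlation of start position with the change was 0.09, 0.04 and -0.05 in the same order of comparisons, a description over entries of the same libraries. In the matched genes it was 0.20, -0.05 and -0.17 in the first table and 0.16, -0.10 and -0.13 in the FPKM table. Neighbouring entries were hardly more alike, with Spearman correlations of 0.07, 0.0014 and 0.12 between the changes of 252 adjacent pairs at different loci.

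In bins of 10 Mb by start, 2 stretches had the outermost medians for wing against neck in the first table. From 10 to 20 Mb the median relative change was -0.23, with 10 of 34 entries above the numbered median, and in the FPKM table it was -0.35 with 4 of 15 genes above. This stretch holds PAIP1 and ELOVL7, lower in wing, and also SLC45A2, which rose. From 40 to 50 Mb the median was 0.20, with 21 of 32 entries above, and 0.14 in the FPKM table with 9 of 14 above. FBP1 and NFIL3 lie here, as does the NXNL2 entry that was low in wing. For leg against wing the same stretches had medians of 0.23 and -0.23 in the first table and 0.40 and -0.19 in the FPKM table. Each of these stretches mixed genes of both directions. Every bin of the FPKM table holds under 20 genes. Its lowest median for wing against neck and its highest for leg against wing lay elsewhere. From 30 to 40 Mb these were -0.41, with 2 of 8 genes above, and 0.51, while the 16 entries of the first table gave -0.02 and 0.03. The 8 matched genes gave -0.28 and 0.44 in the first table, also its outermost medians on those sides for matched genes. For wing against neck the highest FPKM median was 0.19, in the 9 genes from 60 to 70 Mb. The matched genes of the first table had theirs from 40 to 50 Mb, at 0.34. From 80 to 90 Mb the first table had 9 entries. The place of the outermost bin thus depended on the genes taken as well as on the table.

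**Figure D5:**
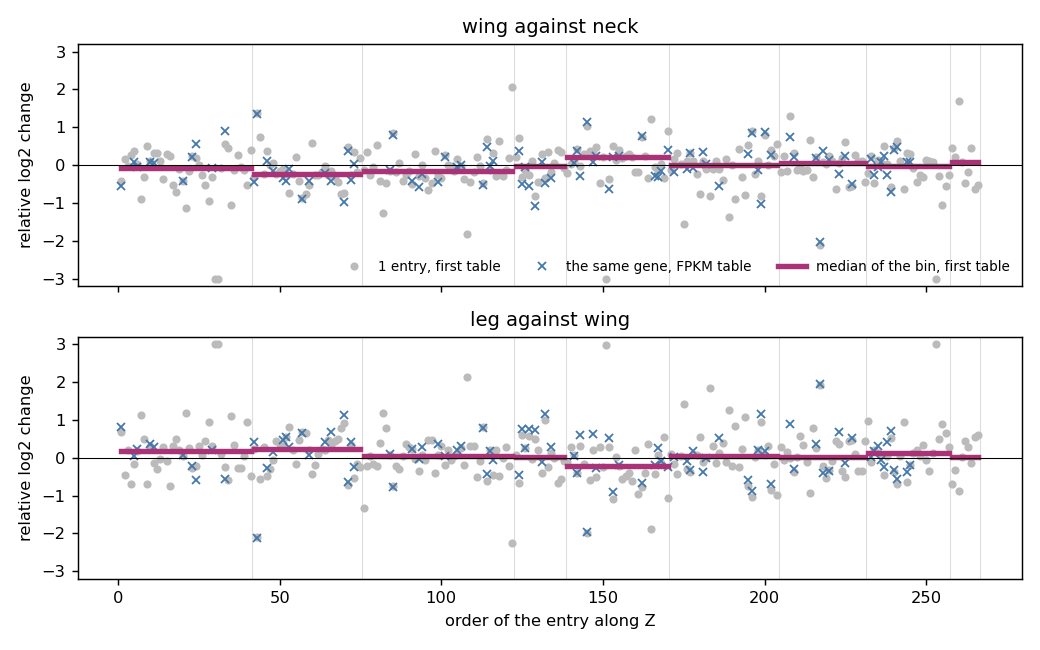
Log2 change of each Z entry relative to the median of numbered chromosomes (y axis) in the order of the entries along Z (x axis), for wing against neck and leg against wing, with entries of the first table as points, matched genes of the FPKM table as crosses and the median of each bin as a bar. Changes beyond 3 are drawn at 3, which concerns 4 and 3 entries, and the bin medians of the first table, the ones drawn, stay between -0.23 and 0.23.

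For leg against neck the bin medians stayed between -0.08 and 0.08 in the first table, and between -0.04 and 0.15 in the FPKM table. The median level in neck ranged from 22 to 28.5 over the bins of the first table, in wing from 19 to 24.5 and in leg from 18 to 25. In the FPKM table, with 8 to 15 genes a bin, the ranges were wider, at 42.0 to 72.2, 50.6 to 87.2 and 37.8 to 73.6 FPKM.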

How the data were processed

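RNA-seq values of growing chicken feathers from 3 regions with 2 labelled replicates each (6 libraries) were taken from 2 tables. The sample labels give the group and the table of each. The authors deposited whole-number scores with gene name and locus in the first table (replicate 1), without stating unit, filter or normalization, so no count model was applied to them. The authors deposited FPKM in the second (replicate 2), without loci, and 1 column with their mean was not used. The submitters' processing notes name TopHat2 2.1.0, Cufflinks 2.2.1 and galGal4, and the paper Galgal4. The first table names no assembly and reaches chromosome 33, so its coordinates are printed as deposited, and the annotation and counter are not given in the sources used here. An unknown unit and merged loci can shift levels between genes, so levels were compared only within a table, and changes between regions across tables.

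Names damaged by spreadsheet conversion (8 and 10) were left out, and older symbols were resolved with RefSeq's GRCg7b gene list (4005 and 6347 names found). Regions were compared with limma (lmFit, eBayes with trend) on log2(value + 1), a scale that understates changes of low genes, over 2140 genes whose mean reached 1 in each table, with the replicate number as a block and Benjamini-Hochberg adjustment over all of them to 0.05. The prior degrees of freedom were infinite, so the spread was pooled over genes of similar mean. The pairing comes from the labels' replicate numbers, each of which is also 1 table. Deviations from the region means correlated at 0.92, 0.97 and 0.92 between same-numbered libraries. These deviations hold the difference between the units of the tables gene by gene, so they cannot show whether the libraries are paired in any other way. Changes called relative are minus the median of numbered chromosomes of the same table.

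Named genes were up to 5 rises and 5 falls per comparison that passed and moved the same way in both tables, the 10 highest Z entries, up to 3 rises and 3 falls per comparison among Z entries of the first table only with a mean of at least 20, and members of lists by role. Results for 2 genes that this rule picked are not reported here. The Z set, the lists and the tests were chosen with earlier results of these data known. The script was tested on simulated data. Alternatives were other scalings, filters, pseudocounts, name matching, libraries and folds. Without fragment counts no counting interval or detection floor could be given. The versions were limma 3.58.1 under R 4.3.3, and matplotlib 3.10.9, scipy 1.17.1, numpy 2.4.6 and pandas 2.3.3 under Python 3.11.15.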

Additional observations from a re-analysis of the deposited data

How the results depend on the processing

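All 27 changes of Z genes between regions that the naming rule picked from the test kept their direction with centred libraries and quantile normalization. Under the other settings, and in each table alone, the direction could not turn. The rule had asked for the same direction in both tables, and those settings leave the order of the regions within a table as it was. All 27 lost significance without the replicate block, and 5 with only the 4 libraries compared (CAST, ELOVL7, PAIP1, ABHD17B and GLRX, wing against neck). Without the replicate block 0 Z genes were called in each comparison. Centring each library gave 51 Z calls for wing against neck and 23 for leg against neck, quantile normalization 51 and 19, and the 4 libraries of wing and neck 7. Over all 2140 genes, centring called 474 higher and 529 lower for wing against neck, and 208 and 193 for leg against neck. Quantile normalization called 472 and 512, and 174 and 195. The 4 libraries of wing and neck called 139 higher and 63 lower. Leaving out a replicate leaves 1 library per region, so no count could be made.

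The difference of the median changes of Z and numbered chromosomes stayed small. For matched genes in leg against neck it was 0.042 against chromosomes 1 to 5, 0.0197 with a mean of at least 40 and 0.0121 with identical names. In leg against wing it was 0.045 by means, 0.033 with a mean of at least 40 and 0.12 with identical names. Over all entries, leg against neck was -0.0052 by means, -0.032 with a mean of at least 40 and 0.0053 without merged or unnamed entries, and leg against wing was 0.054 without chromosome 25 and 0.022 with a mean of at least 40.

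At a fold of 1.5, Z entries higher and lower numbered 19 and 30 for wing against neck, 6 and 10 for leg against neck, and 34 and 29 for leg against wing. With a mean of at least 40 they numbered 3 and 3, 0 and 3, and 5 and 3. With changes as they stand, 1 was higher for leg against neck and 13 lower for leg against wing. No counts over all entries are given at these settings, so these are not read as results about Z. The cause of these shifts was not tested. Each replicate is tied to 1 table and processing, and values near 10 in whole steps limit the precision of low entries.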
